A study of Mus musculus with 6 samples.

Results

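Apoe, Clu, Slc1a2, Slc1a3, Slc4a4, Aldoc, Fabp7, Sparcl1 and Gja1 are 9 genes known for the metabolism and transport work of astroglia, the radial glia and astrocytes of the brain. They were chosen by name, and all 9 were found among the 15703 genes of the deposited table, each under 1 gene identifier. Expression was measured by RNA sequencing of the neocortex of newborn C57BL/6 mice (postnatal day 0) in 3 conditional knockout (cKO) animals and 3 wild-type (WT) animals. The cKO animals carried the genotype Tcf4 f/f; Emx1Cre/+, in which both alleles of the transcription factor gene Tcf4 are floxed and Cre recombinase is driven by Emx1, a homeobox gene of the dorsal forebrain progenitors that give rise to excitatory neurons and to glia. Interneurons, microglia and blood vessels arise outside that lineage and are not targeted. The labels give the controls as WT and do not say whether they carried Cre or a floxed allele, nor whether animals shared a litter. The study asked how expression changes after loss of Tcf4. Libraries are called cKO 1, 2 and 3 and WT 1, 2 and 3 after the replicate numbers of the labels. Values are FPKM (fragments per kilobase of exon and 1e6 fragments), computed by the authors. By their median ratios, though not by their totals, the libraries were already on a common scale.

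Astroglia take up the glutamate that synapses release, buffer bicarbonate and potassium, pass metabolites to each other through gap junctions and secrete the lipoproteins that carry lipid between brain cells. At birth the cortex of the mouse is at the start of astrocyte production, radial glia are still present, and genes such as Fabp7 and Slc1a3 are expressed in both. Tcf4 encodes a basic helix-loop-helix protein of the E-protein class, which binds as a dimer to the E-box, the DNA letters CANNTG.

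In cKO neocortex, 6 of the 9 genes fell. Slc4a4, a sodium bicarbonate cotransporter, was 2.14-fold lower than in WT, and Apoe, the main apolipoprotein of the brain, was 1.83-fold lower. The glutamate transporter Slc1a2 fell 1.54-fold, the aldolase Aldoc 1.47-fold, the fatty acid binding protein Fabp7 1.45-fold and the connexin Gja1 1.36-fold. Clu, Slc1a3 and Sparcl1 did not pass the test, and none of the 9 rose (none at an unadjusted p under 0.05 either, and none by limma-voom, a test run on reads rebuilt from the FPKM values). The test was limma on log2(FPKM + 1) with Benjamini-Hochberg adjustment over all 15703 genes, and a gene was called at an adjusted p under 0.05. By the same rule 8.59% of all genes were called lower and 7.22% higher in cKO (1349 and 1134 genes). Lower genes made up 54.3% of all calls, and 37.1% with every library scaled to the same total FPKM (1045 lower and 1769 higher). Limma-voom, run on 15661 genes, called 1364 lower and 1685 higher, so that 44.7% of its calls were lower. List counts by these rules are to be read beside those numbers. The share of all genes at an unadjusted p under 0.05 was not counted. The median log2 change of the 9 genes was −0.54, against 0.0017 over all genes. In 7 of the 9 genes every cKO value lay below every WT value, which held for 18.7% of all genes. In whole tissue, fewer cells of a type and less RNA per cell cannot be told apart.

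**Figure D1:**
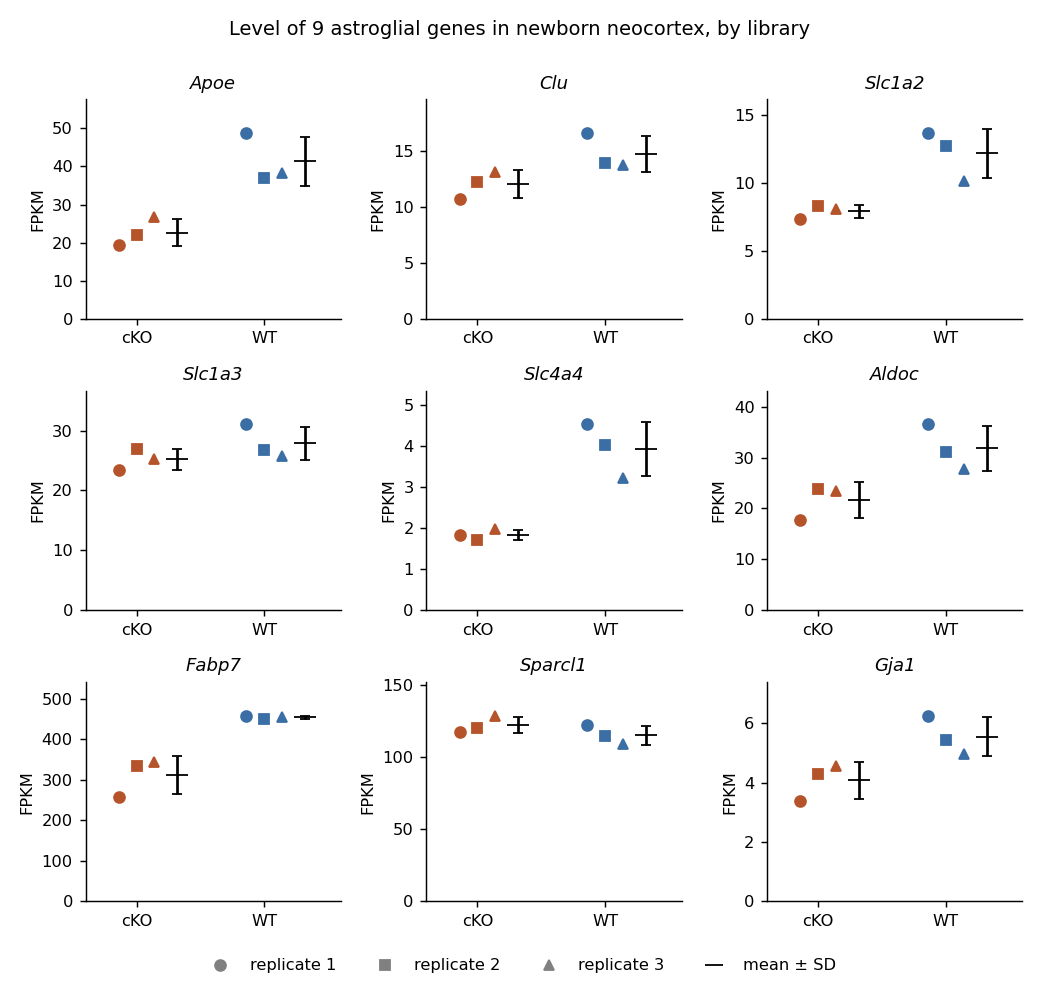
FPKM of each of the 9 genes in each library, with cKO (brown) left of WT (blue), symbols for the replicate numbers and the mean ± SD of 3 libraries in black; each vertical axis starts at 0. Apoe lies at 19.4 to 26.6 FPKM in cKO and 37.1 to 48.8 FPKM in WT, whereas the groups overlap in Slc1a3 and Sparcl1.

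Tcf4 itself was at 56.5, 60.6 and 55.3 FPKM in cKO 1, 2 and 3, against 71.2, 75.6 and 75.3 FPKM in WT 1, 2 and 3 (log2 change −0.36, SE 0.0617, limma adjusted p = 0.00411). These values count all exons and all cells of the tissue. Reads in listed genes, rebuilt from the FPKM values and approximate, numbered 25.5 to 26.7 M (1e6 reads) in cKO and 25.4 to 28.8 M in WT. In each library these reads exceeded the library size used to rebuild them, 23.2 to 24.3 M in cKO and 23.4 to 26.1 M in WT. They are thus a rough guide to depth. The 9 genes had 452 to 14946 such reads per library, the fewest in Slc4a4 and the most in Fabp7. Xist and Ddx3y showed 1 male in each group, cKO 3 and WT 1, and the other 4 animals were female.

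Among the defining markers of astrocytes are Aqp4, the water channel of astrocyte endfeet, Gfap, their intermediate filament, and Aldh1l1, a folate enzyme. Aqp4 was at 1.77 ± 0.268 FPKM in cKO and 3.55 ± 0.752 FPKM in WT, Gfap at 3.60 ± 0.629 FPKM in cKO and 6.85 ± 1.71 FPKM in WT, and Aldh1l1 at 6.35 ± 0.737 FPKM in cKO and 9.64 ± 1.06 FPKM in WT (SD, n = 3 each). All 3 fell (limma adjusted p = 0.00526, 0.00893 and 0.00562). Part of the Aldh1l1 exons is also annotated to an antisense gene model. The 3 genes are named here as defining markers and lie outside the rule for naming genes. They are among the 19 that fell of 34 other astrocyte genes described below, of which 15 did not pass.

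Start windows of the genes whose changes were largest, of the most abundant one and of the glutamate transporter pair are printed here because Tcf4 binds E-boxes. Of the Apoe and Slc4a4 windows, only that with an E-box is printed. The printed Apoe, Slc4a4 and Slc1a2 windows lie at annotated starts inside the gene spans given below. RefSeq windows of 250 bases before to 50 bases after an annotated start (GRCm38.p6, the assembly of mm10) were given for 7 of the 9 genes, in 11 windows. Apoe had 3 and Slc4a4 and Aldoc 2 each; Clu and Sparcl1 had none. Each sequence runs 5′ to 3′ along the gene, with every E-box, CANNTG, in capitals. The windows are chr7:19698572-19698871 on the minus strand for Apoe, chr5:89027716-89028015 on the plus strand for Slc4a4, chr2:102706188-102706487 on the plus strand for Slc1a2, chr15:8710758-8711057 on the minus strand for Slc1a3 and chr10:57784673-57784972 on the plus strand for Fabp7.
Apoe: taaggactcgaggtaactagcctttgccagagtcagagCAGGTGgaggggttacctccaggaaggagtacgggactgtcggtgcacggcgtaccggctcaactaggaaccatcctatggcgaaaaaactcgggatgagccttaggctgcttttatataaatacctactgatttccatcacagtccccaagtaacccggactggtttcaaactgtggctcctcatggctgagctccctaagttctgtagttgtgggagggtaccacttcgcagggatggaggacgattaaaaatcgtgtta
Slc4a4: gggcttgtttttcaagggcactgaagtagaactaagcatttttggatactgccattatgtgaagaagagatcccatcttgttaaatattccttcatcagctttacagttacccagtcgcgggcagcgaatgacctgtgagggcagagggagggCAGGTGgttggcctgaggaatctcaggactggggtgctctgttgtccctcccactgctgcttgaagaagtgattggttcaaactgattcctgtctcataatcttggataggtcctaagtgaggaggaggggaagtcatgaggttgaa
Slc1a2: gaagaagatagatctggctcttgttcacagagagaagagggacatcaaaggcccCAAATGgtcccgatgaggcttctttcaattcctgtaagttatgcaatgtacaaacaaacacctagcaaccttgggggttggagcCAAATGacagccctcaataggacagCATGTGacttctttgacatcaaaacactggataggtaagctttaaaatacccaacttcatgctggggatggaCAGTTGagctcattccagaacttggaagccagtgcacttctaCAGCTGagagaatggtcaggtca
Slc1a3: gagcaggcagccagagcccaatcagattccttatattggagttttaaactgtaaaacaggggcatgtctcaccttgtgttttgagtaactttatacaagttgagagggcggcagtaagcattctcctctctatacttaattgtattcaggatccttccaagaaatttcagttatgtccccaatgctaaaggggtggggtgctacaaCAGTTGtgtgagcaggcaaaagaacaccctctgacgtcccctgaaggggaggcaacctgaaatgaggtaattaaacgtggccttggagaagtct
Fabp7: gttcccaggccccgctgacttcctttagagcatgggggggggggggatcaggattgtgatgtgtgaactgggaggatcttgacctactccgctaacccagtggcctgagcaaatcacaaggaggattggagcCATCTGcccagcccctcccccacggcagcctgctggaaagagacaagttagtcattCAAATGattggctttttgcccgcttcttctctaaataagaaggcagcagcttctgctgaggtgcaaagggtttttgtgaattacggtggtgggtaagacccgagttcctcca

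An E-box was found in 7 of the 11 windows, and in 72.3% of the 32851 RefSeq windows of the same length. The Slc1a2 window holds 5 E-boxes and that of its paralog Slc1a3 holds 1. Over all windows the median was 1 E-box and the mean 1.39. No window at the 5′ end of Slc1a2 was given. CAGGTG, or CACCTG on the other strand, is an E-box that E-proteins are known to prefer; it was found in 2 of the 11 windows, 1 of Apoe and 1 of Slc4a4, and in 20.2% of all windows, so that its share here was near that of all windows. CAGCTG stood in the Slc1a2 window alone (16.3% of all) and CAGATG or its complement CATCTG in the Fabp7 window alone (17.2% of all). The last 3 motifs are special cases of CANNTG, and both strands were searched. The other Apoe windows, the other Slc4a4 window and 1 Aldoc window hold no E-box. Among these are the Apoe window at the 5′ end of the gene (chr7:19699139-19699438) and the Slc4a4 window nearer the gene's start (chr5:88887010-88887309). A match describes letters only and is not a bound site.

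The secreted lipid carriers differed in size of change. Apoe (ENSMUSG00000002985, chromosome 7, 19696109 to 19699188, minus strand, mm10), the protein around which astrocyte lipoprotein particles form, was at 19.4, 21.9 and 26.6 FPKM in cKO 1, 2 and 3, against 48.8, 37.1 and 38.4 FPKM in WT 1, 2 and 3. All 3 cKO values lay below all WT values. The means were 22.6 ± 3.66 FPKM in cKO and 41.4 ± 6.44 FPKM in WT, a log2 change of −0.84 (95% interval −1.12 to −0.57, limma adjusted p = 0.00179). It ranked 124 from the lowest log2 change among the 15703 genes. Clu (ENSMUSG00000022037, chromosome 14, 65968483 to 65981547, plus strand), which encodes clusterin, a secreted chaperone also carried on lipoprotein particles, was at 10.6, 12.2 and 13.1 FPKM in cKO, against 16.6, 13.9 and 13.7 FPKM in WT. The groups did not overlap, by the margin between cKO 3 and WT 3, and the log2 change of −0.27 (95% interval −0.49 to −0.06) did not pass (limma adjusted p = 0.0755). With the sex of the animals as a term, Clu was called lower (limma adjusted p = 0.0450).

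Within each library the log2 ratio of Apoe to Clu, taken on FPKM + 1, was 0.86 ± 0.096 in cKO and 1.43 ± 0.074 in WT (SD, n = 3 each), a difference of −0.57. Every cKO ratio lay below every WT ratio. The exact 2-sided permutation test gave p = 0.1, the smallest that 3 against 3 allows. Here and below, the share of other gene pairs whose ratios stand apart was not computed. Among single genes, 18.7% had every cKO value below every WT value and 18.5% above. The ratios are therefore descriptive only. Of 14 other genes of lipoprotein secretion and lipid uptake, 1 fell, 1 rose and 12 did not pass, with a median log2 change of −0.08. At an unadjusted p under 0.05, 3 were higher in cKO; 3 were called higher by limma-voom and 2 with libraries scaled to equal total FPKM. Lpl, lipoprotein lipase, fell to 0.779 ± 0.176 FPKM in cKO, against 9.82 ± 0.685 FPKM in WT (limma adjusted p = 3.98e-07). Sorl1, a sorting receptor that binds apolipoprotein E, rose to 11.1 ± 0.796 FPKM in cKO, against 8.90 ± 0.546 FPKM in WT (limma adjusted p = 0.0295). That call was lost without each library in turn except WT 2 (adjusted p 0.0530 to 0.129, the highest without cKO 2).

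Apoe is also expressed by microglia. Among 13 microglia markers there were 6 that fell, 0 that rose and 7 that did not pass limma's test, with a median log2 change of −0.42 (0 higher at an unadjusted p under 0.05, and 0 by limma-voom). Their summed level was 24.8 to 34.6 FPKM in cKO libraries and 39.5 to 47.0 FPKM in WT libraries, and no marker was at 0. The protease Ctss fell to 2.51 ± 0.0896 FPKM in cKO, against 3.84 ± 0.177 FPKM in WT (limma adjusted p = 0.00408), Laptm5 to 1.225 ± 0.143 FPKM in cKO, against 1.96 ± 0.0950 FPKM in WT, and Cd68 to 1.604 ± 0.307 FPKM in cKO, against 2.57 ± 0.143 FPKM in WT (SD, n = 3 each). The call of Cd68 was lost without WT 1 (adjusted p = 0.0543) and without cKO 2 (adjusted p = 0.0588). Without WT 1, 2 of the microglia markers were called lower, and without both WT 1 and cKO 3 there was 1. The part of microglia in the change of Apoe was not tested.

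The main glutamate transporters of astroglia gave unequal changes. Slc1a2 (ENSMUSG00000005089, chromosome 2, 102658659 to 102790784, plus strand), which encodes GLT-1, the transporter that dominates in mature astrocytes, was at 7.37, 8.32 and 8.10 FPKM in cKO 1, 2 and 3, against 13.7, 12.7 and 10.1 FPKM in WT 1, 2 and 3. Every cKO library was below the lowest WT library, WT 3. The means were 7.93 ± 0.497 FPKM in cKO and 12.2 ± 1.84 FPKM in WT, a log2 change of −0.56 (95% interval −0.78 to −0.33, limma adjusted p = 0.00601). Without both WT 1 and cKO 3, which leaves the females, the adjusted p was 0.0616. Of its exon length, 1.4% is shared with the gene model Gm13872; the exons of the other 8 genes are shared with no other annotated gene.

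Slc1a3 (ENSMUSG00000005360, chromosome 15, 8634124 to 8710764, minus strand), which encodes GLAST, the transporter of radial glia and immature astrocytes, was at 23.4, 26.9 and 25.3 FPKM in cKO, against 31.1, 26.8 and 25.7 FPKM in WT. The groups overlapped, since cKO 2 was above WT 2 and WT 3. The log2 change was −0.14 (95% interval −0.32 to 0.05) and did not pass (limma adjusted p = 0.279). Within each library the log2 ratio of Slc1a2 to Slc1a3 was −1.55 ± 0.029 in cKO and −1.13 ± 0.12 in WT, a difference of −0.42 (SD, n = 3 each). The ratios of the groups did not overlap, and the exact permutation test gave the smallest p it can, 0.1.

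Of 13 other genes of glutamate uptake and of the glutamine cycle, 3 fell, none rose and 10 did not pass limma's test (median log2 change −0.03). At an unadjusted p under 0.05, 2 were higher in cKO, and 1 was called higher by limma-voom and with libraries scaled to equal total FPKM, where 2 were called lower. Glul, glutamine synthetase, which converts the glutamate taken up by astrocytes, fell to 52.7 ± 2.69 FPKM in cKO, against 70.5 ± 4.73 FPKM in WT (limma adjusted p = 0.00362). Slc38a3, a glutamine transporter of astrocytes, fell to 4.51 ± 0.188 FPKM in cKO, against 5.99 ± 0.468 FPKM in WT, and Glud1, glutamate dehydrogenase, to 38.1 ± 1.10 FPKM in cKO, against 45.6 ± 2.14 FPKM in WT (limma adjusted p = 0.0175 and 0.0215). Both of these calls were lost without WT 1 (adjusted p = 0.0795 and 0.0937) and without cKO 2 (0.0768 and 0.0865), and that of Glud1 also without cKO 1 (0.0721). Without WT 1 or cKO 2, 1 gene of the list was called lower.

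Slc4a4 (ENSMUSG00000060961, chromosome 5, 88886818 to 89239653, plus strand), which encodes the cotransporter NBCe1 that moves sodium and bicarbonate across the astrocyte membrane, showed the lowest ratio of cKO to WT among the 9 genes. It was at 1.83, 1.72 and 1.97 FPKM in cKO 1, 2 and 3, against 4.54, 4.03 and 3.22 FPKM in WT 1, 2 and 3. The 3 cKO libraries lay close together, all far below the lowest WT library. The means were 1.84 ± 0.126 FPKM in cKO and 3.93 ± 0.663 FPKM in WT, a log2 change of −0.79 (95% interval −1.03 to −0.55, limma adjusted p = 0.00123). Because the level is low, the pseudocount shrank this value, and with a pseudocount of 0.1 the log2 change was −1.04. Of 11 listed genes for other bicarbonate and proton carriers and carbonic anhydrases, 1 fell, 1 rose and 9 did not pass (median log2 change 0.05). Car2, a carbonic anhydrase of glia, fell to 1.57 ± 0.111 FPKM in cKO, against 2.76 ± 0.168 FPKM in WT (limma adjusted p = 0.00230). Car14 rose at a level under 1 FPKM, 0.502 ± 0.125 FPKM in cKO and 0.254 ± 0.0243 FPKM in WT (limma adjusted p = 0.0380). It did not hold without each library in turn except cKO 1 (adjusted p 0.0533 to 0.127, the highest without cKO 2), and Aph1a, in antisense, covers 17.5% of the Car14 exons by length.

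Aldoc (ENSMUSG00000017390, chromosome 11, 78322968 to 78327781, plus strand), the brain form of the glycolytic enzyme aldolase, was at 17.7, 23.9 and 23.5 FPKM in cKO 1, 2 and 3, against 36.6, 31.0 and 27.9 FPKM in WT 1, 2 and 3. The groups did not overlap, and cKO 1 was the lowest library by a wide margin. The means were 21.7 ± 3.49 FPKM in cKO and 31.8 ± 4.41 FPKM in WT, a log2 change of −0.54 (95% interval −0.81 to −0.26, limma adjusted p = 0.0170). The call was lost without WT 1 (adjusted p = 0.0676) and without cKO 1 (adjusted p = 0.0520). Aldoa, the widely expressed aldolase, was at 33.9 ± 1.97 FPKM in cKO and 36.5 ± 1.58 FPKM in WT and did not pass (limma adjusted p = 0.307). The log2 ratio of Aldoc to Aldoa was −0.63 ± 0.20 in cKO and −0.20 ± 0.13 in WT, with groups that did not overlap (difference −0.43, exact permutation p = 0.1, the smallest possible). None of 8 listed genes for aldolase A and the upper steps of glycolysis passed limma's test, the lowest adjusted p being 0.0806, although 2 had an unadjusted p under 0.05 and limma-voom called 1 higher. The 2 with the highest levels were Tpi1 (47.7 ± 2.94 FPKM in cKO and 54.2 ± 2.32 FPKM in WT) and Pfkm (47.0 ± 1.83 FPKM in cKO and 50.4 ± 1.71 FPKM in WT).

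Fabp7 (ENSMUSG00000019874, chromosome 10, 57784881 to 57788450, plus strand), the brain fatty acid binding protein of radial glia and young astrocytes, was the most abundant of the 9 per exon length. It was at 258, 334 and 345 FPKM in cKO 1, 2 and 3, against 459, 450.1 and 454 FPKM in WT 1, 2 and 3. The WT libraries were nearly equal, with a coefficient of variation of 0.936%, against 15.2% among the cKO libraries, of which cKO 1 was lowest. The means were 312 ± 47.5 FPKM in cKO and 454 ± 4.25 FPKM in WT, a log2 change of −0.55 (95% interval −0.77 to −0.33, limma adjusted p = 0.00562). The related gene Fabp5 was at 84.9 ± 9.41 FPKM in cKO and 84.8 ± 4.49 FPKM in WT and did not pass (limma adjusted p = 0.983). Fabp3, the other member of the family in the table, fell to 33.8 ± 5.05 FPKM in cKO, against 45.5 ± 1.54 FPKM in WT (limma adjusted p = 0.0149), a call that was lost without cKO 1 (adjusted p = 0.0528) and without WT 1 (adjusted p = 0.05004). Of the Fabp3 exons, 9.8% by length are also covered by Zcchc17 in antisense. The log2 ratio of Fabp7 to Fabp5 was 1.86 ± 0.066 in cKO and 2.41 ± 0.080 in WT, again without overlap (difference −0.55, exact permutation p = 0.1, the smallest possible).

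Radial glia markers did not move in 1 direction. Of 15, 4 fell, 3 rose and 8 did not pass, with a median log2 change of 0.03 and a summed level of 312 to 366 FPKM in cKO libraries and 421 to 439 FPKM in WT libraries. Ptn, a secreted growth factor and the most abundant of the 15, fell to 121 ± 8.92 FPKM in cKO, against 179.8 ± 24.9 FPKM in WT (limma adjusted p = 0.00470). The summed level therefore leans on Ptn. Prom1 rose to 4.45 ± 0.0486 FPKM in cKO, against 2.93 ± 0.167 FPKM in WT, and the cadherin Cdh4 to 15.6 ± 0.486 FPKM in cKO, against 12.04 ± 0.465 FPKM in WT. Without WT 1 or cKO 1, 1 marker of the list was called lower, and without cKO 3 there were 2. Without both WT 1 and cKO 3, 1 was called lower and 0 higher. The part of radial glia in the change of Fabp7 was not tested.

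Gja1 (ENSMUSG00000050953, chromosome 10, 56377330 to 56402513, plus strand), which encodes connexin 43, the gap junction protein that couples astroglia, was at 3.38, 4.31 and 4.56 FPKM in cKO 1, 2 and 3, against 6.26, 5.43 and 4.97 FPKM in WT 1, 2 and 3. The groups did not overlap, but cKO 3 and WT 3 were close. The means were 4.08 ± 0.623 FPKM in cKO and 5.55 ± 0.651 FPKM in WT, a log2 change of −0.37 (95% interval −0.61 to −0.13, limma adjusted p = 0.0465). This was the least firm of the 6 calls. It was lost without 4 of the 6 libraries in turn, with an adjusted p of 0.161 without WT 1, 0.152 without cKO 1, 0.0831 without cKO 2 and 0.0626 without WT 2, and with libraries scaled to equal total FPKM (0.0762). None of the 6 other connexin, pannexin and junction genes in the table fell by limma (0 lower at an unadjusted p under 0.05, and 0 by limma-voom) and 1 rose. That gene was Gjd2, the connexin of electrical synapses between neurons, at 5.19 ± 0.279 FPKM in cKO and 3.39 ± 0.182 FPKM in WT (limma adjusted p = 0.00274). The log2 ratio of Gja1 to Gjc1, another connexin gene, was −0.93 ± 0.19 in cKO and −0.55 ± 0.20 in WT, without overlap (difference −0.38, exact permutation p = 0.1, the smallest possible).

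Sparcl1 (ENSMUSG00000029309, chromosome 5, 104079111 to 104113733, minus strand), which encodes hevin, a secreted protein that promotes the formation of excitatory synapses, was the only one of the 9 with a higher mean in cKO. It was at 118, 120.2 and 129 FPKM in cKO 1, 2 and 3, against 122, 115 and 109 FPKM in WT 1, 2 and 3. The groups overlapped, and the log2 change of 0.08 (95% interval −0.06 to 0.23) did not pass (limma adjusted p = 0.405). Its relative Sparc, which encodes a secreted protein known to oppose hevin at synapses, fell to 22.3 ± 1.40 FPKM in cKO, against 26.9 ± 1.76 FPKM in WT (limma adjusted p = 0.0395), a call that was lost without each library in turn except WT 3 (adjusted p 0.0559 to 0.148, the highest without WT 1). The log2 ratio of Sparcl1 to Sparc was 2.40 ± 0.063 in cKO and 2.06 ± 0.012 in WT, a difference of 0.34, and was the only ratio of the 6 taken that was higher in cKO (no overlap, exact permutation p = 0.1, the smallest possible). Adjusted over the 6 ratios, each p remained 0.1. Of 8 listed genes of the SPARC family and hevin partners, 3 fell (Fstl1, Smoc1, Sparc), 1 rose (Spock3) and 4 did not pass. Fstl1, a secreted glycoprotein, was at 11.5 ± 1.82 FPKM in cKO and 16.2 ± 0.563 FPKM in WT, and the proteoglycan gene Spock3 at 2.61 ± 0.264 FPKM in cKO and 1.64 ± 0.227 FPKM in WT (limma adjusted p = 0.0118 and 0.0126). Without WT 1, cKO 1 or cKO 2, 1 gene of the list was called lower, and Spock3 lost its call without cKO 1 (adjusted p = 0.0533).

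Sparcl1 is also expressed in endothelial and mural cells and in neurons. None of 10 endothelial or 7 mural markers passed limma's test, with median log2 changes of −0.06 and 0.02; 2 and 1 of them had an unadjusted p under 0.05, and limma-voom called 0. The endothelial gene Cldn5 was at 18.4 ± 1.87 FPKM in cKO and 21.2 ± 1.82 FPKM in WT, and Slc2a1 at 11.9 ± 0.779 FPKM in cKO and 11.7 ± 1.99 FPKM in WT. The mural gene Rgs5 was at 20.6 ± 0.639 FPKM in cKO and 23.5 ± 1.76 FPKM in WT, and Vtn at 5.82 ± 0.923 FPKM in cKO and 5.69 ± 0.0786 FPKM in WT. Without WT 2, 2 endothelial markers were called higher. Of 12 pan-neuronal genes 5 fell, 1 rose and 6 did not pass, with a median log2 change of −0.13. Their summed level was 2025 to 2097 FPKM in cKO libraries and 2279 to 2288 FPKM in WT libraries. It leaned on Tubb3, at 926 ± 8.15 FPKM in cKO and 1012 ± 16.7 FPKM in WT, which did not pass (limma adjusted p = 0.146). Nefl and Nefm, neurofilament genes whose exons overlap on opposite strands (32.8% and 19.2% of their exon lengths), and Snap25, a protein of vesicle fusion, were the 3 that fell with the smallest p. Elavl4 was the 1 that rose, to 43.1 ± 2.80 FPKM in cKO, against 29.1 ± 2.97 FPKM in WT (limma adjusted p = 0.00190).

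**Figure D2:**
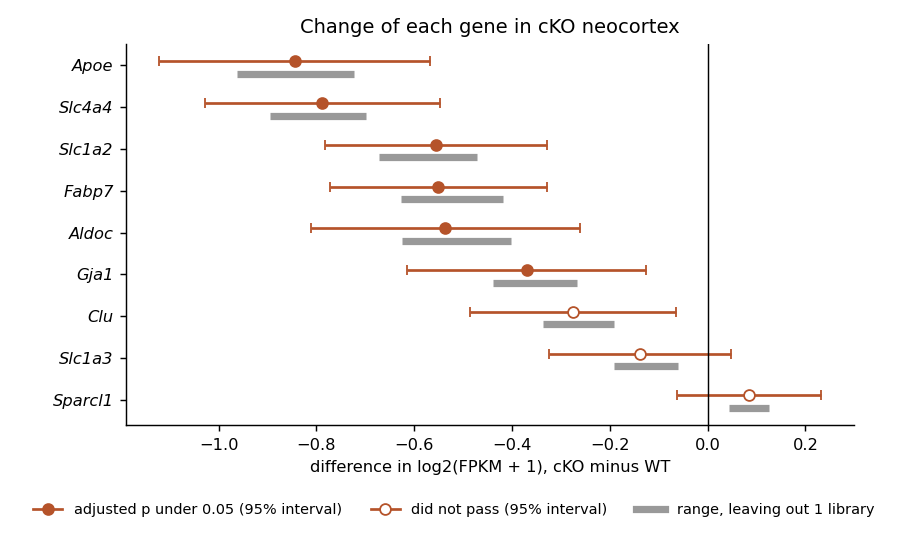
Difference in log2(FPKM + 1), cKO minus WT, with its 95% interval for each of the 9 genes (filled, adjusted p under 0.05; open, did not pass), and in grey the range of the estimate when each of the 6 libraries is left out in turn. The estimates run from −0.84 for Apoe to 0.08 for Sparcl1, and the sign of each of the 9 held without any 1 library.

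The order of the 9 genes by level, on the FPKM scale, was nearly the same in both groups. In cKO it ran Fabp7, Sparcl1, Slc1a3, Apoe, Aldoc, Clu, Slc1a2, Gja1, Slc4a4, and in WT Fabp7, Sparcl1, Apoe, Aldoc, Slc1a3, Clu, Slc1a2, Gja1, Slc4a4. Slc1a3 stood in position 3 in cKO and in position 5 in WT. Neighbours whose ranges over 3 libraries overlapped were Slc1a3 with Apoe and Apoe with Aldoc in cKO, and Aldoc with Slc1a3 in WT. The summed level of the 9 genes was 459 to 577 FPKM in cKO libraries and 687 to 738 FPKM in WT libraries, most of it Fabp7 and Sparcl1. Without these 2 genes the sum was 83.6 to 103.1 FPKM in cKO libraries and 124.1 to 158 FPKM in WT libraries.

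The libraries of a group differed in a shared way. cKO 1 was the lowest cKO library in 8 of the 9 genes, the exception being Slc4a4, and WT 1 was the highest WT library in all 9. cKO 3 was the highest cKO library in 6 of the 9, and WT 3 the lowest WT library in 7. WT 1 and cKO 3 were the only males of their groups, so sex and animal cannot be told apart in this pattern. The median deviation of the 9 genes from the WT mean was −0.65, −0.39 and −0.40 log2 units in cKO 1, 2 and 3 and 0.17, −0.02 and −0.11 in WT 1, 2 and 3. Among the males the ratio of cKO to WT was 0.545 for Apoe, 0.591 for Slc1a2 and 0.434 for Slc4a4, with 1 animal a group. Among the females it was 0.548, 0.686 and 0.489, with 2 animals a group. For Fabp7 the ratio was 0.752 among males and 0.655 among females, and for Slc1a3 0.813 and 0.957. The difference between the sexes was not tested.

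**Figure D3:**
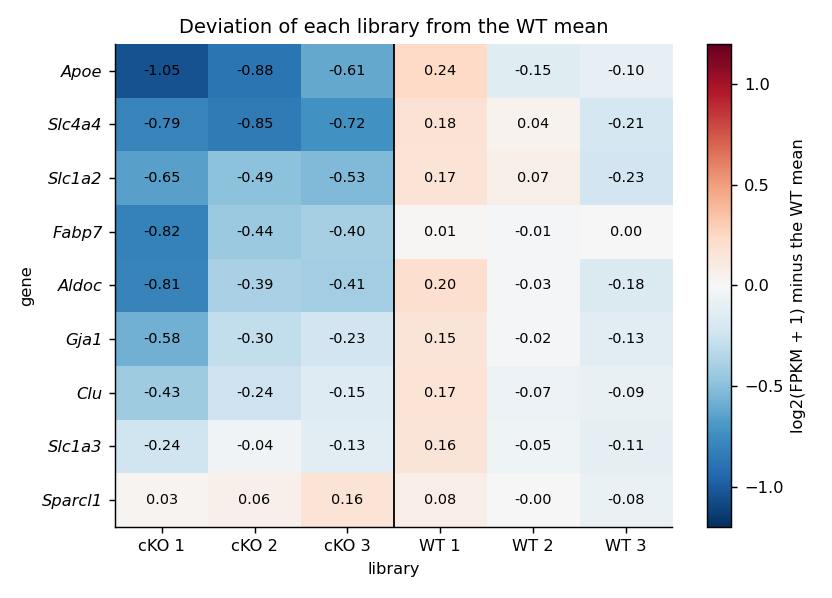
Deviation of log2(FPKM + 1) from the WT mean for each gene (rows, ordered by change) and library (columns, cKO left of WT; blue lower, red higher). cKO 1 holds the lowest value in 8 of the 9 rows among cKO libraries, and WT 1 the highest among WT libraries in all 9.

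Other astrocyte genes fell as well. Of 34 other astrocyte genes in the table, chosen from a list of 37 with earlier results of these data known, 19 fell, none rose and 15 did not pass limma's test, with a median log2 change of −0.39 (1 higher at an unadjusted p under 0.05, and 0 by limma-voom). Their summed level was 298 to 341 FPKM in cKO libraries and 405 to 466 FPKM in WT libraries. The 1 gene higher at an unadjusted p under 0.05 was Slc6a9, at 2.72 ± 0.486 FPKM in cKO and 2.07 ± 0.187 FPKM in WT (limma adjusted p = 0.114). Glul is counted both here and in the list of glutamate uptake and the glutamine cycle. Bcan, the proteoglycan brevican, fell to 13.8 ± 1.17 FPKM in cKO, against 23.4 ± 2.16 FPKM in WT (limma adjusted p = 0.000501). Slc6a11, a GABA transporter of astrocytes, fell to 9.997 ± 0.757 FPKM in cKO, against 16.5 ± 1.66 FPKM in WT. Dio2, which activates thyroid hormone, fell to 4.56 ± 0.494 FPKM in cKO, against 7.63 ± 0.582 FPKM in WT, and Pla2g7, a secreted phospholipase, to 2.44 ± 0.398 FPKM in cKO, against 4.90 ± 0.836 FPKM in WT. These 4 held without each library in turn, at an adjusted p of at most 0.0147. Between 16 and 20 of the list were called lower when 1 library was left out, and 13 without both WT 1 and cKO 3.

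Genes of the regulators of glial fate were mixed. Of 16 such factors 3 fell, 1 rose and 12 did not pass, with a median log2 change of −0.05. By limma-voom 5 were called lower and 2 higher, and with libraries scaled to equal total FPKM 3 were called lower and 2 higher. Id2 and Id3, inhibitors of basic helix-loop-helix proteins, and Sox9, a factor needed for gliogenesis, fell, while Nfib, a nuclear factor I gene, rose. Sox9 was at 7.40 ± 0.914 FPKM in cKO and 10.1 ± 0.5 FPKM in WT (limma adjusted p = 0.0127, and 0.0581 without WT 1), and Nfib at 88.2 ± 3.35 FPKM in cKO and 74.2 ± 1.37 FPKM in WT (limma adjusted p = 0.0191, 0.103 without cKO 2 and 0.0767 without WT 1). Id3 was at 5.37 ± 0.551 FPKM in cKO and 10.9 ± 0.991 FPKM in WT, and Id2 at 35.9 ± 5.12 FPKM in cKO and 313 ± 61.6 FPKM in WT.

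**Figure D4:**
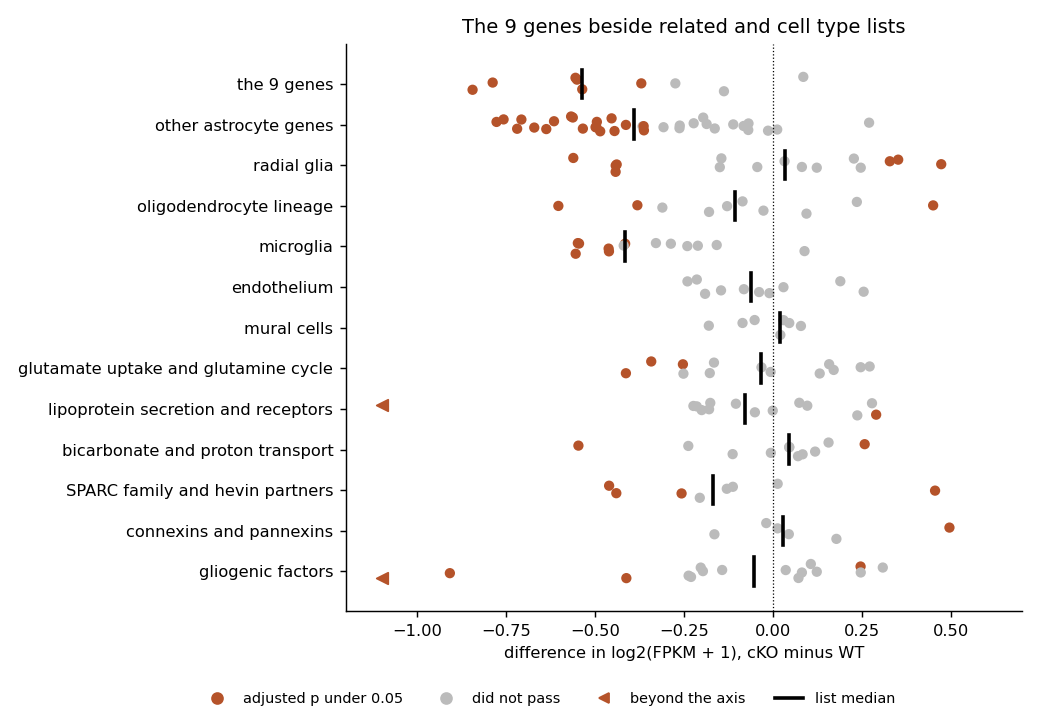
Difference in log2(FPKM + 1), cKO minus WT, of each gene in 13 lists (brown, adjusted p under 0.05; grey, did not pass; arrowheads, Lpl and Id2, beyond the axis), with the list median in black. The medians of the 9 genes, the other astrocyte genes and the microglia markers are −0.54, −0.39 and −0.42, and those of the other 10 lists drawn lie between −0.17 and 0.05; the upper glycolysis, fatty acid binding protein (median −0.22), meningeal, choroid plexus, pan-neuronal and blood lists are not drawn.

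In other cell classes, 2 of 10 oligodendrocyte lineage markers fell (Olig1, Pdgfra), 1 rose (Mog) and 7 did not pass. Olig1, a factor of that lineage, was at 21.99 ± 2.31 FPKM in cKO and 33.8 ± 1.35 FPKM in WT (limma adjusted p = 0.000981). Pdgfra lost its call without WT 1 (adjusted p = 0.0566) and without cKO 1 (adjusted p = 0.0512). Of 6 meningeal and fibroblast markers 1 fell, and it was Pdgfra, which the oligodendrocyte list also holds. Among 3 genes of choroid plexus and ependyma there was 1 that fell (Sostdc1, 0.533 ± 0.234 FPKM in cKO and 1.05 ± 0.212 FPKM in WT, a call held only without cKO 3 or WT 2 among the leave-one-out fits, with adjusted p 0.103 to 0.127 in the others), and none of 3 blood cell genes passed (0 at an unadjusted p under 0.05, and 0 by limma-voom). Apoe and Clu are also expressed in choroid plexus, and their level there was not measured apart.

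The genes whose pattern over the 6 libraries was most like the mean of the 9 were sought among 8213 genes with a mean of at least 5 FPKM, by the root mean square difference between profiles centred on the WT mean. Among the nearest were Gm10222, Actr3b, Sox9 and Glul, at 0.024, 0.047, 0.052 and 0.055 log2 units. Gm10222 is annotated as an unprocessed pseudogene, so its reads may belong to a near-identical copy. Glul was at 50.3, 52.1 and 55.6 FPKM in cKO 1, 2 and 3, against 75.8, 69.2 and 66.6 FPKM in WT 1, 2 and 3, without overlap. Of the 9 genes, Gja1 lay nearest to their mean profile (0.058 log2 units) and Sparcl1 farthest (0.377).

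**Figure D5:**
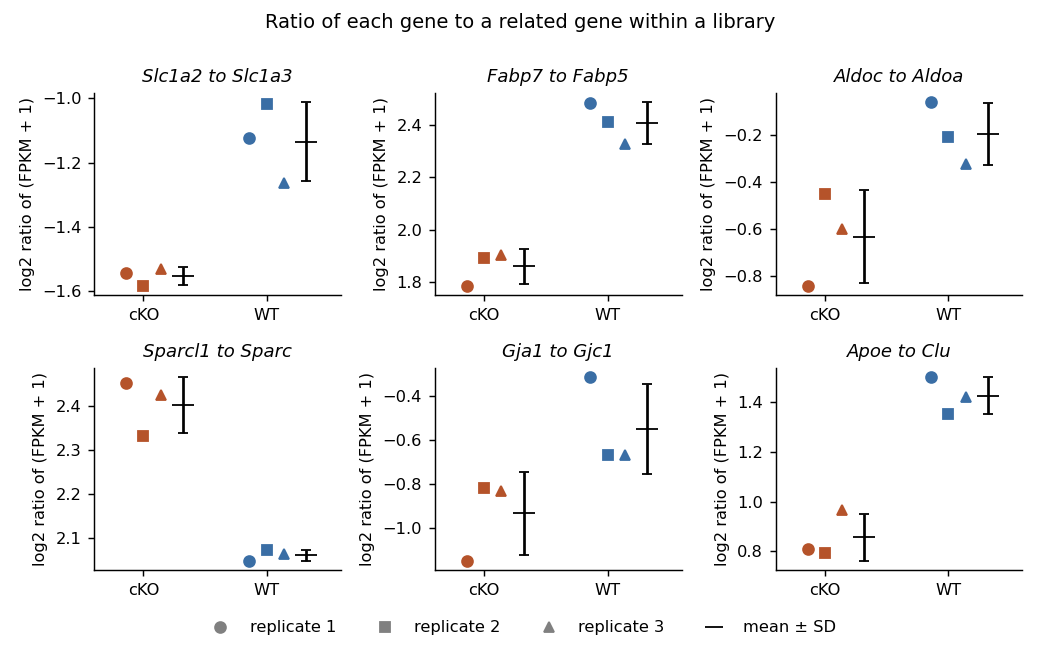
Log2 ratio of FPKM + 1 between each gene and a related gene within each library, with cKO (brown) left of WT (blue), symbols for replicate numbers and the mean ± SD in black; axes do not start at 0. The ratios of the groups do not overlap in any of the 6 pairs, and Sparcl1 to Sparc is the one that is higher in cKO. The share of other gene pairs without overlap was not computed.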

How the data were processed

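RNA of 6 neocortices was sequenced, 3 cKO and 3 WT; groups and replicate numbers come from the sample titles, which carry a different animal code each. The authors deposited FPKM values, as the table's title line states. The median over genes of a library's value divided by the geometric mean of all libraries was 1.003 in each library. By that rule, median-of-ratios scaling, the deposited values already stood on a common scale. Total FPKM did differ by group, at 247355 to 255491 in cKO libraries and 260100 to 270433 in WT libraries. STAR 2.5.4b, featureCounts 1.6.1, R 3.4.1, DESeq2 1.22.1 and the build mm10 were used by the authors, per the submitters' processing notes. The annotation release, the strand setting and any low-value filter were not given in the sources used here. Of the 15703 genes, 15661 matched GENCODE M21 by identifier, which gave coordinates and exon lengths; 139 blank lines were left out.

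From the deposited FPKM, log2(FPKM + 1) was fitted with limma 3.58.1 in R 4.3.3, with genotype as the only term, a mean-variance trend and robust moderation, and Benjamini-Hochberg adjustment over all 15703 genes. This scale shrinks the change of low genes, and fold changes are therefore ratios of mean FPKM. Intervals are 95% intervals of limma's fit, unadjusted. Ratios within a library were compared by an exact 2-sided permutation test (scipy 1.17.1). Reads were rebuilt from FPKM, exon length and the library size at which low genes came out as whole reads; of genes with at most 50 reads and under 3000 exon bases, 94.8% to 96.0% of values were within 0.1 of whole, and at a typical other size 19.7% to 20.0%. These reads served for depth and 1 alternative. The fit was tested on simulated data.

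The 9 genes and all lists were chosen with earlier results of these data known. The lists are not independent, since Glul, Pdgfra, Cspg4, Sox2, Hes1 and Hes5 each stand in more than 1. Named are the 9 genes, Tcf4, from each list up to 4 called genes with the smallest p (3 for cell type markers) or the 2 most abundant where none was called, and the 5 genes most like the mean profile, of which 1 is not reported here. Named besides are the partners in the ratios and Aqp4, Gfap, Aldh1l1, Slc6a9, Elavl4 and Tubb3. Alternatives changed the pseudocount, a low-value filter, the scaling, the variance model, the test, the replicate block and the libraries. Same-numbered animals were not paired by any label. A sex term, the 4 females alone and an exon length correction were added after seeing the data.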

Additional observations from a re-analysis of the deposited data

How the results depend on the processing

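Under 16 alternatives the 9 genes kept their direction. Of 144 combinations of gene and alternative, 129 stayed on the same side of the threshold, 13 lost a call and 2 gained one. The calls of Apoe, Slc4a4 and Fabp7 held under all 16, and that of Slc1a2 under all but the 4 females alone (adjusted p = 0.0616). Aldoc and Gja1 lost theirs under 4 and 8. Clu was called lower by limma-voom on rebuilt reads (0.0495) and with a sex term (0.0450). Of the 9 genes, 3 to 7 were called lower.

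In the 4 females alone, without WT 1 and cKO 3 (an alternative chosen after seeing the data), 624 genes were called lower, 369 higher and 3 of the 9 lower. With each library scaled to the same total, 1045 genes were lower, 1769 higher and 5 of the 9 lower. Leaving out 1 library in turn, 830 to 1517 genes were called lower and 544 to 1572 higher, 4 to 6 of the 9 were lower, and their median log2 change ran from −0.59 to −0.40. The counts of all genes fell most without WT 1 (830 lower, 544 higher), cKO 1 (830, 566) and cKO 2 (839, 578); 4 of the 9 were called without WT 1 or without cKO 1.

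With the replicate number as a block, 1541 genes were lower, 1274 higher and 4 of the 9 lower; Aldoc (0.0586) and Gja1 (0.0640) lost their calls. The labels do not pair the animals, and same-numbered libraries did not deviate together (correlation over genes of −0.046, 0.0998 and −0.048 for numbers 1, 2 and 3, against −0.196 to 0.206 for libraries with different numbers). With the block, 2 genes of lipoprotein secretion and lipid uptake were called higher. With 3 animals a group, changes below those detected here cannot be called absent.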
